A study of Mus musculus with 14 samples.

Results

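The 10 genes described here encode proteins of the Z-disc, the plate that anchors the actin filaments at each end of the sarcomere, together with the giant filament proteins that are tied to it. They were Ttn, Neb, Actn2, Actn3, Myoz1, Myoz2, Myot, Tcap, Ldb3 and Pdlim3, chosen by name among the probe sets whose array annotation gives 1 gene symbol, and they were 10 of 19938 genes so measured. Each had 1 probe set with its symbol alone. The arrays were Affymetrix mouse gene arrays of the plantaris, a calf muscle, of male C57BL/6J mice aged 25 months, sampled on days 0, 1, 3, 5, 7, 10 and 14. The plantaris had been loaded by synergist ablation, the removal of the gastrocnemius and soleus, which leaves it to carry their work, and day 0 is labelled as healthy. On each day 1 array held RNA pooled from the left and 1 from the right plantaris of 6 animals, so that each group was n = 2 arrays, and both pools of a day were taken here to be from 1 set of animals. No array is labelled as sham operated, so operation and load cannot be told apart, and day and animals cannot be told apart either. By its title, the series is about age and muscle hypertrophy. Young animals were not analysed here.

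In the Z-disc, alpha-actinin cross-links actin filaments that arrive from neighbouring sarcomeres, and a set of smaller proteins binds to alpha-actinin, to titin or to both. Titin runs from the Z-disc to the M-band in the middle of the sarcomere and acts as its spring, while nebulin lies along the actin filament and is rooted in the Z-disc. The structure is rebuilt when a muscle adds sarcomeres or repairs them, and several of its proteins have fast-fibre and slow-fibre forms.

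All values are log2 signals, and a difference is given as a log2 difference ± its standard error from limma. A gene was called lower or higher where its p, adjusted over all genes by the Benjamini-Hochberg method, was under 0.05. Since a group is the 2 sides of 1 set of pooled animals, p-values reflect how far sides and arrays differ, and not how animals vary. The 14 arrays carried 30 muscle fibre markers at a mean log2 signal of 13.49 (left) and 13.53 (right) on day 0, and the median over all genes lay between 8.25 and 8.42 on the 14 arrays. The number of arrays limits the precision, and the median standard error of a difference was 0.0974. All members were bright on day 0, from percentile 98.02 of all genes for Tcap and 98.11 for Myoz2 to 99.95 for Neb. Whether signals near the top of the array understate a change, more in some members than in others, was not tested. Sizes of change are thus compared between members with this limit. Because most members fell together with other fibre genes, directions are also given on a second scale, on which all arrays were shifted to the same median of these 30 markers, none of which is a member. That shift adds 0.435, 0.893, 1.04, 0.78, 0.631 and 0.327 to every difference from day 0 on days 1, 3, 5, 7, 10 and 14, so that a smaller fall becomes a value above 0. The 30 markers include all 12 fast-fibre markers used below and none of the 10 slow-fibre markers. The second scale is thus weighted to fast-fibre genes and is not a measure of fibre content.

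Sequences upstream of the start site were read for 5 of the 10 genes, Ttn, Myoz2, Actn2, Ldb3 and Pdlim3, from RefSeq promoters on GRCm38.p6. These 5 were the members with an entry in that table and were not chosen by their course. They include genes that differ in it: Ttn and Ldb3 fell and had partly come back by day 14, Myoz2 and Actn2 had both arrays of day 14 above day 0, and Pdlim3 did not fall. The 250 bases before the start site are given 5′ to 3′ on the strand of the gene, with matches to the searched motifs in capitals. The motifs were the E-box (CANNTG), the MCAT element (CATTCC), the TATAAA box, the CArG box and the MEF2 site, searched on both strands of windows that run on for 50 bases after the start.
Ttn, chr2:76982548-76982797, minus strand: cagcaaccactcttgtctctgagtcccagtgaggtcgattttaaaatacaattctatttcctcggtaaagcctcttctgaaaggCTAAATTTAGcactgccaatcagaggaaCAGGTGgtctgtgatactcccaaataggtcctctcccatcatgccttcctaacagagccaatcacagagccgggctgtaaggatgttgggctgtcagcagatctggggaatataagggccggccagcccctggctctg
Myoz2, chr3:123034988-123035237, minus strand: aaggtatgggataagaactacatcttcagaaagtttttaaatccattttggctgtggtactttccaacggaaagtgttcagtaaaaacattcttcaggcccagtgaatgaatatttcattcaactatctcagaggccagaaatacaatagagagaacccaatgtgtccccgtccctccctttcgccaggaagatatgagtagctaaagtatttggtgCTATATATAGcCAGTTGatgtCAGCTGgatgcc
Actn2, chr13:12340733-12340982, minus strand: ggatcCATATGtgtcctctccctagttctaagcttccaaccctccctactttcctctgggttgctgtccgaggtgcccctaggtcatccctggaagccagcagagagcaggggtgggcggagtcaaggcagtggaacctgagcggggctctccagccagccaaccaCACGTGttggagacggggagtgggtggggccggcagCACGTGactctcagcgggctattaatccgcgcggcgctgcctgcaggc
Ldb3, chr14:34588682-34588931, minus strand: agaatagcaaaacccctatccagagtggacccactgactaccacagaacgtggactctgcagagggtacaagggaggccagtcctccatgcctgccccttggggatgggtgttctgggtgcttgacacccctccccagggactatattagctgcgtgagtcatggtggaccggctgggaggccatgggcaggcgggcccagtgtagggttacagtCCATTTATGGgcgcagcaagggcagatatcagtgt
Pdlim3, chr8:45885237-45885486, plus strand: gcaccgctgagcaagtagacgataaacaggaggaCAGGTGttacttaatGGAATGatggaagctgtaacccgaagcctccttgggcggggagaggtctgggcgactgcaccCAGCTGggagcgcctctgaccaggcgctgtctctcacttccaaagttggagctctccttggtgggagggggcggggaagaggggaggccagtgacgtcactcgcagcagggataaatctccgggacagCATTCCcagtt

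The Ttn window held a MEF2 site that began at position -166 and an E-box at -138, counted from the start site, and an MCAT element at 12, which lies after the start. In the Myoz2 window a MEF2 site at -33 was followed by E-boxes at -22 and -12. Actn2 had 3 E-boxes, at -245, -84 and -48, and no other match. Ldb3, which has 2 overlapping entries whose start sites lie 74 bases apart, had 1 CArG box, at -35 in the entry shown. Pdlim3 had 2 E-boxes, at -216 and -139, and 2 MCAT elements, at -201 and -11. Of 32851 promoter windows of the same length, 72.3% held an E-box, 14.7% an MCAT element, 13.6% a TATAAA box, 3.19% a MEF2 site and 1.63% a CArG box. The 2 promoters with a MEF2 site, of Ttn and Myoz2, belonged to genes with different time courses, which are described in turn below. A match describes the letters alone.

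**Figure D1:**
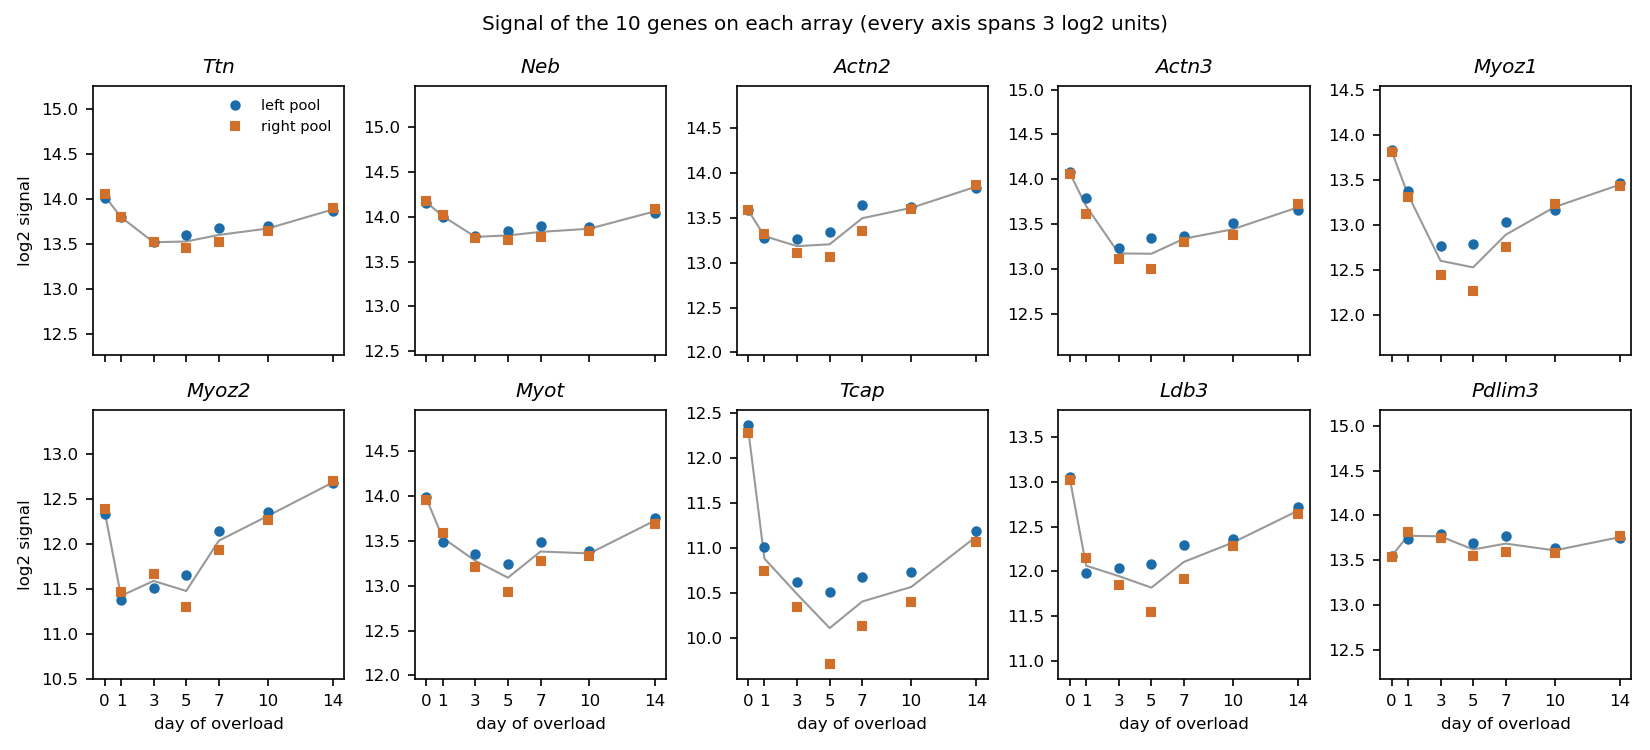
Log2 signal of each of the 10 genes (vertical axis, 3 log2 units in every panel) against the day of overload, with circles for left pools, squares for right pools and a line through the mean of both. On the deposited scale every gene but Pdlim3 dips between days 1 and 7; the dips of Ttn, Neb, Actn2, Actn3, Myoz2 and Myot turn into values at or above day 0 on some or all of these days when arrays are set to the same fibre marker median.

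On the deposited scale 8 of the 10 genes fell on day 1, 9 on day 3, 9 on day 5, 8 on day 7, 7 on day 10 and 2 on day 14, and relative to the fibre marker median 3, 1, 1, 1, 1 and 1 of them were lower. Pdlim3 was the 1 gene called higher on days 1 and 3, no member was called higher on days 5, 7 and 10, and 2 members, Myoz2 and Pdlim3, were called higher on day 14. Of all genes tested, 22.6%, 26.6%, 33.7%, 36.3%, 34.3% and 30.5% were called lower on days 1, 3, 5, 7, 10 and 14, and 22.3%, 24.1%, 26.4%, 26.6%, 25.9% and 22.9% were called higher. The share of members called lower was thus above the background from day 1 to day 10. On day 14 the count of 2 depended on the scale, since 7 members were lower with arrays at equal medians of all genes. On the fibre marker scale 5.1%, 2.63%, 2.26%, 2.96%, 3.6% and 4.06% of all genes were called lower on the 6 days and 57.7%, 86.8%, 89.7%, 76.6%, 59.4% and 28.3% higher, and 1, 4, 4, 4, 3 and 3 of the 10 members were higher. Calls of a member as higher relative to the fibre markers are thus to be read against a scale on which most genes rose up to day 10. At an unadjusted p under 0.05 with limma the members called higher on days 5, 7 and 10 were also 0. The median difference of the 10 genes from day 0 was -0.40, -0.73, -0.88, -0.51, -0.49 and -0.20 on the 6 days, against 0.04, -0.07, -0.12, -0.14, -0.13 and -0.11 for all genes. The moderated F test over all days called 9 of the 10 members, all but Pdlim3 (adjusted p = 0.0959), against 79.5% of all genes. The count of 8 on day 1 was 4 without the left pool of day 0, 5 without its right pool, 5 without the left pool of day 1 and 4 without its right pool. The count of 2 lower on day 14 was 5 without either pool of day 5 and 1 without the left pool of day 14.

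Marker lists of other cells are given here beside the falls, and they did not all move one way. Of 12 macrophage markers 11 rose on day 1 and 12 on day 5, and their mean log2 signal went from 9.04 (left) and 8.69 (right) on day 0 to 11.72 and 11.78 on day 5. Of 10 fibroblast markers 3 rose and 4 fell on day 1 (median -0.19) and 9 rose on day 5, with means of 10.11 and 9.93 on day 0 and 12.01 and 12.02 on day 5. Of 9 satellite cell and myoblast markers 2 rose and 1 fell on day 1 and 8 rose on day 5, with means of 8.94 and 8.84 on day 0 and 10.69 and 10.70 on day 5. All 8 neutrophil markers rose on day 1, 3 rose and 2 fell on day 5, and 5 of them were lower on days 7 and 10. Of 8 endothelial markers 4 fell and 1 rose on day 1, and 2 fell and 6 rose on day 5. Of 8 smooth muscle markers 5 fell on day 1, and 2 fell and 5 rose on day 5. Of 7 adipocyte markers 6 fell on day 1, and 1 fell and 1 rose on day 5. Of the 30 fibre markers 21, 28, 28, 25, 25 and 15 fell on days 1, 3, 5, 7, 10 and 14, with medians of -0.41, -0.86, -1.04, -0.73, -0.64 and -0.28. The mean of the fibre markers was 12.64 and 12.28 on day 5. No marker is at 0, since the log2 scale of the arrays has no 0 for an absent RNA. In pooled tissue, fewer fibres and less RNA of a gene per fibre cannot be told apart, and the part of the other cells in the falls was not tested.

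**Figure D2:**
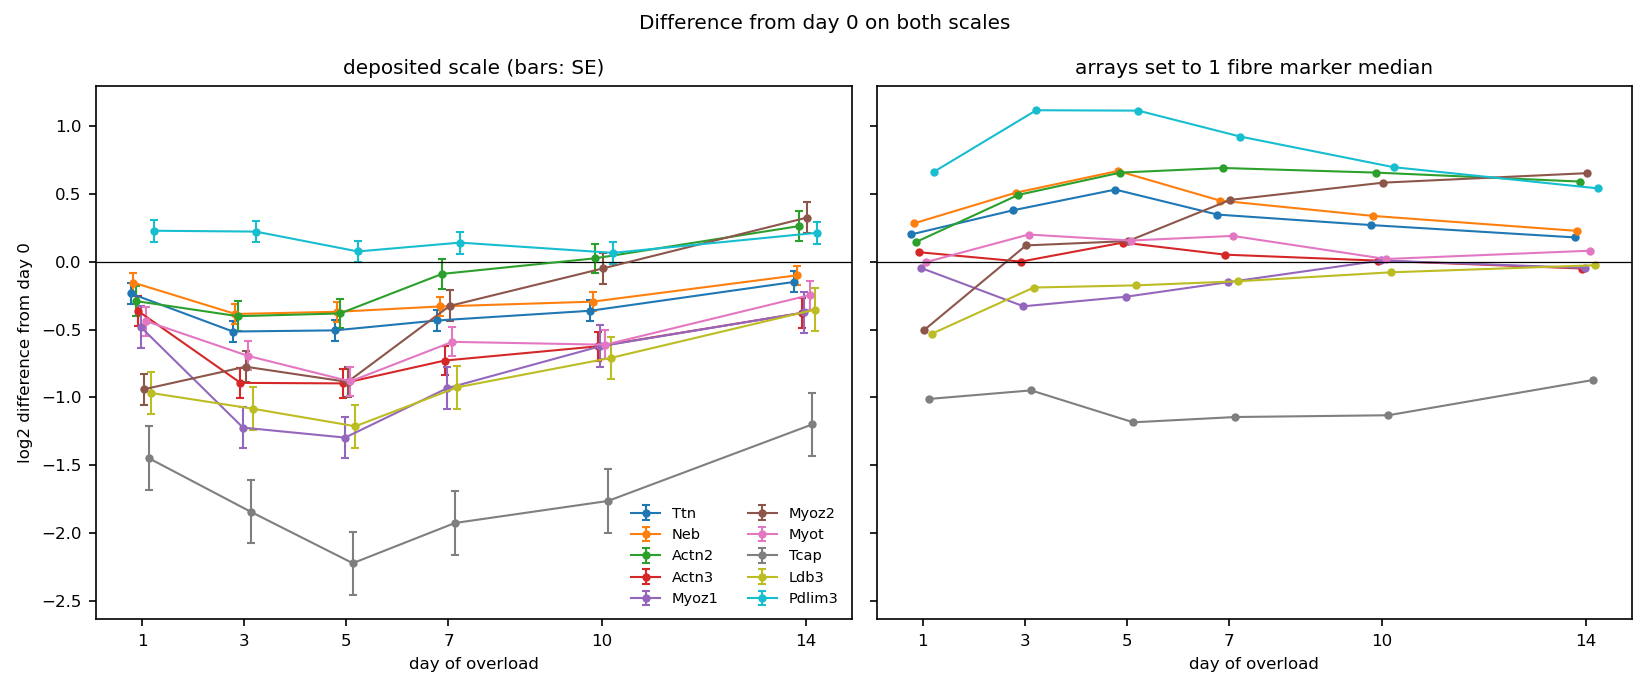
Log2 difference from day 0 (vertical axis) of the 10 genes against the day of overload; the left panel is the deposited scale with standard errors, and the right panel has all arrays at the same median of 30 fibre markers. Tcap lies lowest on every day in both panels, at -2.22 and -1.18 on day 5, while Ttn, Neb, Actn2, Actn3, Myoz2 and Myot are below 0 on day 5 in the left panel and above 0 in the right one.

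Ttn and Neb, the genes of the giant proteins, had small falls with little spread between pools, at signals near the top of the scale (percentiles 99.93 and 99.95 on day 0). Ttn, which encodes titin, had log2 signals of 14.01 (left) and 14.06 (right) on day 0, 13.79 and 13.80 on day 1, 13.52 and 13.52 on day 3, 13.59 and 13.46 on day 5, 13.68 and 13.52 on day 7, 13.69 and 13.65 on day 10, and 13.86 and 13.90 on day 14. Neb, which encodes nebulin, had 14.15 and 14.17 on day 0, 13.99 and 14.02 on day 1, 13.79 and 13.76 on day 3, 13.85 and 13.74 on day 5, 13.89 and 13.77 on day 7, 13.89 and 13.84 on day 10, and 14.04 and 14.08 on day 14. For both genes every array of days 1 to 14 was below both arrays of day 0. Ttn fell by 0.51 ± 0.08 on day 3 (adjusted p = 9.8e-05), to 70.0% of day 0, and was still lower on day 10, at -0.36 ± 0.08, whereas relative to the fibre markers it was 0.38 higher on day 3 (adjusted p = 0.0421). Neb fell by 0.39 ± 0.07 on day 3 (adjusted p = 0.000577), to 76.5% of day 0, and was 0.51 higher relative to the fibre markers (adjusted p = 0.00779). On day 14 neither passed, with 95% intervals from -0.32 to 0.02 for Ttn and from -0.26 to 0.05 for Neb, but with arrays at equal medians of all genes both were lower, at -0.27 and -0.22 (adjusted p = 0.00871 and 0.0169). The fall of Ttn on day 1, -0.23 ± 0.08 (adjusted p = 0.0246), passed in no fit that left out either pool of day 0 or day 1, where the adjusted p reached 0.108, and that of Neb, -0.15 ± 0.07, did not pass (adjusted p = 0.101).

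The change of Neb was compared with that of Ttn directly, by subtracting the Ttn value of each array from every other gene. All rows of such a table share the noise of the reference gene, while limma treats them as separate. In the tests of paired genes p-values can thus be too small, intervals too narrow and shares of genes called too high. The difference between the changes of Neb and Ttn lay between 0.05 and 0.14. It was called on 0 of 6 days with limma, and on 0 days at an unadjusted p under 0.05. On day 5 it was 0.14 ± 0.08, with a 95% interval from -0.04 to 0.31. Against Ttn as reference, 58.9%, 77.1%, 67.9%, 57.4%, 53.1% and 39.5% of all other genes were called in either direction on days 1, 3, 5, 7, 10 and 14. Over the 14 arrays the correlation of Ttn with Neb was r = 0.99, the highest of any pair of members, as a description of arrays that share their days.

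The alpha-actinin genes parted. Actn3 encodes the alpha-actinin of fast fibres and Actn2 the form found in all fibres. Actn3 had 14.08 and 14.06 on day 0, 13.80 and 13.61 on day 1, 13.24 and 13.11 on day 3, 13.34 and 13.00 on day 5, 13.37 and 13.31 on day 7, 13.51 and 13.38 on day 10, and 13.66 and 13.72 on day 14. Actn2 had 13.59 and 13.58 on day 0, 13.27 and 13.32 on day 1, 13.26 and 13.11 on day 3, 13.34 and 13.07 on day 5, 13.64 and 13.35 on day 7, 13.62 and 13.60 on day 10, and 13.83 and 13.87 on day 14. All 12 arrays of days 1 to 14 lay below day 0 for Actn3, while for Actn2 both arrays were below day 0 on days 1, 3 and 5 and both above it on days 10 and 14. Actn3 fell by 0.90 ± 0.11 on day 5 (adjusted p = 1.5e-05), to 53.7% of day 0, and was at 0.14 relative to the fibre markers, where it did not pass. It was still lower on day 14, at -0.38 ± 0.11 (adjusted p = 0.0119), a call that ended without the left pool of that day (adjusted p = 0.057). Actn2 was called lower on days 3 and 5, at -0.40 ± 0.11 and -0.38 ± 0.11, was at -0.09 ± 0.11 on day 7 and at 0.26 ± 0.11 on day 14 (adjusted p = 0.0595, or as low as 0.0377 without 1 pool of day 5 or day 7), and was higher relative to the fibre markers on days 3, 5, 7, 10 and 14, by 0.49 to 0.69. Its falls of days 3 and 5 no longer passed without the right pool of the day (adjusted p = 0.0703 and 0.11), and its fall of day 1, -0.29 ± 0.11 (adjusted p = 0.0454), ended in 10 of 14 fits that left out 1 array.

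The test of the difference between both genes called it on 5 of 6 days, with p-values that can be too small, as said for Neb and Ttn. Relative to Actn3, Actn2 was higher by 0.49 ± 0.15 on day 3, 0.51 on day 5, 0.64 on day 7, 0.65 on day 10 and 0.64 on day 14 (adjusted p = 0.00356, 0.00255, 0.000473, 0.00047 and 0.000896), which is a 1.56-fold shift of their ratio by day 14. On day 1 the difference was 0.08 ± 0.15, with a 95% interval from -0.24 to 0.39. The count of 5 days was the same in each of the 14 fits that left out 1 array. A ratio within an array does not move with a shift of that array, so it is the same on the fibre marker scale. Of all other genes, 61.1%, 90.9%, 90.1%, 79%, 68.6% and 40.7% were called relative to Actn3 on days 1, 3, 5, 7, 10 and 14. Up to day 10 most genes were thus called, so that a call relative to Actn3 does not set Actn2 apart from other genes.

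Actn1, the non-muscle alpha-actinin of stress fibres and cell adhesions, moved the opposite way. Its log2 signal was 9.62 and 9.17 on day 0, 10.93 and 10.74 on day 1, 11.46 and 11.51 on day 3, 11.77 and 11.97 on day 5, 11.83 and 11.87 on day 7, 11.66 and 11.65 on day 10, and 11.16 and 11.27 on day 14. Every later array was above day 0, by 2.47 ± 0.13 on day 5, a 5.56-fold rise (adjusted p = 9.2e-09). Relative to Actn3 it was higher on all 6 days, by 1.80 on day 1 and 3.37 ± 0.17 on day 5. Many non-muscle cells also express Actn1. On day 1, when Actn1 was at 1.44, macrophage and neutrophil markers were higher, with medians of 2.02 and 1.76, whereas fibroblast, endothelial and smooth muscle markers had medians of -0.19, -0.32 and -0.57. On day 5, when Actn1 was highest, the medians of macrophage and neutrophil markers were 2.78 and -0.44. Those of fibroblast, endothelial, smooth muscle, and satellite cell and myoblast markers were 2.20, 0.57, 0.48 and 1.66. The source of Actn1 in the tissue was not tested.

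**Figure D3:**
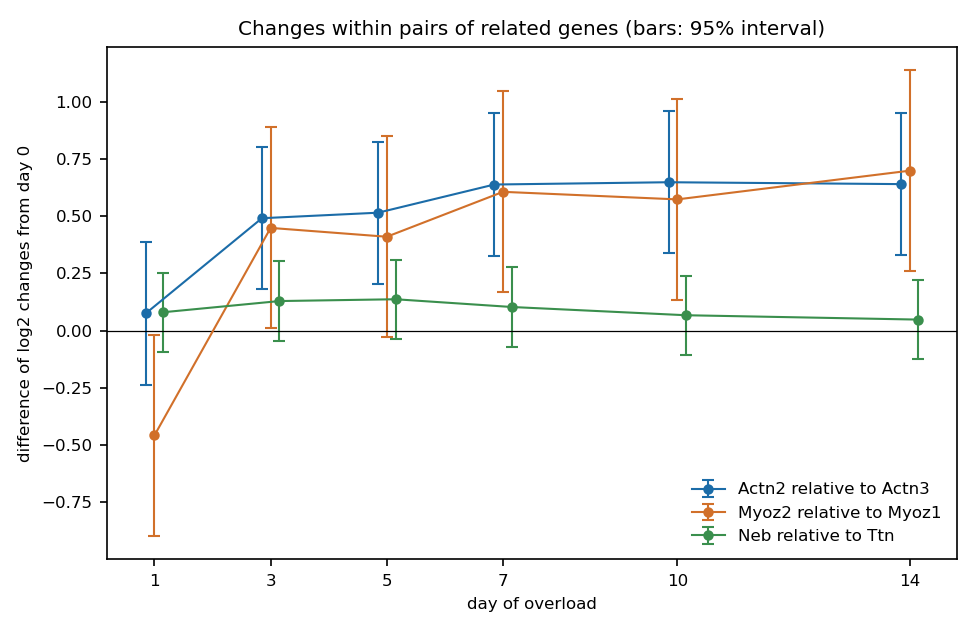
Difference between the log2 changes from day 0 of related genes (vertical axis) against the day of overload, with unadjusted 95% intervals, for Actn2 relative to Actn3, Myoz2 relative to Myoz1 and Neb relative to Ttn. The intervals of Actn2 relative to Actn3 lie above 0 from day 3 on, those of Neb relative to Ttn include 0 on all 6 days, and Myoz2 relative to Myoz1 goes from -0.46 on day 1 to 0.70 on day 14. Intervals can be too narrow, since all genes compared with a reference gene share its noise.

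Myoz1 and Myoz2 encode myozenins, also called calsarcins, which bind alpha-actinin and the phosphatase calcineurin. Myoz1 is the form of fast fibres and Myoz2 that of slow fibres and heart. Myoz1 had 13.83 and 13.82 on day 0, 13.38 and 13.31 on day 1, 12.77 and 12.44 on day 3, 12.79 and 12.27 on day 5, 13.03 and 12.75 on day 7, 13.17 and 13.23 on day 10, and 13.47 and 13.43 on day 14. Myoz2 had 12.33 and 12.39 on day 0, 11.38 and 11.46 on day 1, 11.51 and 11.67 on day 3, 11.66 and 11.29 on day 5, 12.14 and 11.93 on day 7, 12.35 and 12.27 on day 10, and 12.68 and 12.70 on day 14. Myoz1 was thus below day 0 on all later arrays, and Myoz2 was below it up to day 7, overlapped it on day 10 and was above it on both arrays of day 14. Myoz1 fell by 1.30 ± 0.15 on day 5 (adjusted p = 1.2e-05), to 40.7% of day 0, and relative to the fibre markers it lay between -0.33 and 0.01 and did not pass (smallest adjusted p = 0.0728). Myoz2 fell by 0.94 ± 0.11 on day 1 (adjusted p = 2.2e-05), to 52.1% of day 0, and stayed lower on that day relative to the fibre markers, by -0.51 (adjusted p = 0.014). It rose above day 0 by 0.32 ± 0.11 on day 14 (adjusted p = 0.0304), and relative to the fibre markers it was higher on days 7, 10 and 14, by 0.45, 0.58 and 0.65. With arrays at equal medians of all genes the rise of Myoz2 on day 14 did not pass, and it ended without any 1 of the 4 pools of days 0 and 14 (adjusted p up to 0.11).

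Myoz2 relative to Myoz1 was called on 4 of 6 days, higher on days 3, 7, 10 and 14 by 0.45, 0.61, 0.57 and 0.70 (± 0.22, adjusted p = 0.0481, 0.00932, 0.0232 and 0.00841). On day 1 the difference pointed the other way and did not pass, at -0.46 ± 0.22 (adjusted p = 0.065). This count rested on single arrays: it was 0 without the left pool of day 0, 1 without its right pool, and 2 without either pool of day 10 or of day 14. Of all other genes, 58.8%, 93.6%, 94.2%, 86.3%, 53% and 29.2% were called relative to Myoz1 on days 1, 3, 5, 7, 10 and 14. A call relative to Myoz1 up to day 10 is thus one that most genes share. Across the 14 arrays Myoz2 correlated with Actn2 at r = 0.94 and with Myoz1 at r = 0.63, and Actn2 correlated with Actn3 at r = 0.57. These are descriptions over arrays that share days and animals.

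Tcap had the largest fall of the 10 genes on every day. It encodes telethonin, which caps the end of titin in the Z-disc. Its log2 signal was 12.37 and 12.28 on day 0, 11.02 and 10.75 on day 1, 10.63 and 10.35 on day 3, 10.51 and 9.71 on day 5, 10.67 and 10.14 on day 7, 10.73 and 10.40 on day 10, and 11.19 and 11.07 on day 14. No later array overlapped day 0. It fell on day 1, to -1.45 ± 0.23, and further to -2.22 ± 0.23 by day 5 (adjusted p = 4.1e-06), when it stood at 21.5% of day 0, a 4.66-fold decrease. On day 14 it was still at 43.6% of day 0, at -1.20 ± 0.23 (adjusted p = 0.00103). Tcap was the member that stayed lower relative to the fibre markers on all 6 days, with values of -1.01, -0.95, -1.18, -1.14, -1.13 and -0.87, and leaving out any 1 array ended none of its 6 calls on the deposited scale (largest adjusted p = 0.00938). The pools of day 5 lay 0.80 apart, the widest gap between pools in the set.

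Ldb3 and Myot are the other members that bind alpha-actinin and fell. Ldb3 encodes a PDZ and LIM domain protein also known as ZASP or cypher. It had 13.05 and 13.01 on day 0, 11.98 and 12.15 on day 1, 12.04 and 11.85 on day 3, 12.09 and 11.55 on day 5, 12.30 and 11.91 on day 7, 12.36 and 12.29 on day 10, and 12.72 and 12.64 on day 14. Myot encodes myotilin, which also binds filamin, and had 13.99 and 13.95 on day 0, 13.48 and 13.58 on day 1, 13.35 and 13.20 on day 3, 13.24 and 12.93 on day 5, 13.49 and 13.27 on day 7, 13.38 and 13.33 on day 10, and 13.76 and 13.69 on day 14. Both genes were below day 0 on all 12 later arrays. Ldb3 was at -0.97 ± 0.16 as early as day 1 (adjusted p = 0.000263) and at -1.21 ± 0.16 on day 5, or 43.2% of day 0, and relative to the fibre markers it was lower on day 1 alone, by -0.53 (adjusted p = 0.00967). Myot fell by 0.88 ± 0.11 on day 5 (adjusted p = 1.5e-05), to 54.3% of day 0, and relative to the fibre markers it stood at 0.16 and was called on no day. On day 14 both missed the threshold, with Ldb3 at -0.35 ± 0.16 (adjusted p = 0.0771) and Myot at -0.25 ± 0.11 (adjusted p = 0.0699). Both passed with arrays at equal medians of all genes (adjusted p = 0.0178 and 0.00894) and without either pool of day 5 (adjusted p = 0.0287 and 0.04), while relative to the fibre markers they were at -0.03 and 0.08.

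Pdlim3 was the member that did not fall on any day. It encodes ALP, another PDZ and LIM domain protein that binds alpha-actinin. The signal was 13.55 and 13.54 on day 0, 13.73 and 13.81 on day 1, 13.79 and 13.74 on day 3, 13.69 and 13.55 on day 5, 13.78 and 13.60 on day 7, 13.64 and 13.59 on day 10, and 13.74 and 13.77 on day 14. Of the 12 later arrays, 11 were above both arrays of day 0, the right pool of day 5 lay between them, and all 14 values spanned 0.27. It was called higher on days 1, 3 and 14, by 0.23, 0.22 and 0.21 (± 0.08, adjusted p = 0.0358, 0.0365 and 0.0419). With arrays at equal medians of all genes none of these calls passed, and Pdlim3 was below 0 on days 5, 7 and 10, at -0.055, -0.005 and -0.072. Each of the 3 calls also ended without either pool of day 0, with an adjusted p of up to 0.164. Relative to the fibre markers Pdlim3 was higher on all 6 days, by 0.66, 1.11, 1.11, 0.92, 0.70 and 0.54. Its correlation with the other members over the 14 arrays lay between r = -0.19 and r = 0.03, as a description.

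On the deposited scale the lowest day differed between members. Actn3, Myoz1, Myot, Tcap and Ldb3 had their lowest mean on day 5, Ttn, Neb and Actn2 on day 3 and Myoz2 on day 1. Between days 1 and 3, 4 members fell further on that scale, Ttn, Neb, Actn3 and Myoz1 (by -0.28, -0.23, -0.53 and -0.74), against 24.7% of all genes, and without the left pool of day 3 the count was 2. Relative to the fibre markers Ttn and Neb went up, from 0.2 and 0.281 on day 1 to 0.378 and 0.507 on day 3. Actn3 and Myoz1 went down there too, from 0.069 and -0.048 to 0 and -0.329. Between days 3 and 5, 0 members were called with limma and 0 at an unadjusted p under 0.05, against 1.9% of all genes lower and 4.68% higher.

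The way back is given between successive days on the deposited scale, where few genes of any kind were called higher, and its rate was not tested. From day 5 to day 7, 1 member was called higher, Myoz2 by 0.56 ± 0.11 (adjusted p = 0.0392), against 0.401% of all genes. That call was absent in 11 of the 14 fits that left out 1 array, and 4 members had an unadjusted p under 0.05. From day 7 to day 10 no member was called, against 0.933% of all genes called higher, and 1 member had an unadjusted p under 0.05. From day 10 to day 14 again 0 members were called, against 3.79% of all genes called higher. At an unadjusted p under 0.05 with limma, 8 members were higher over that step. The share of all genes at the unadjusted threshold was not counted for these steps, so the unadjusted counts have no background beside them. Without either pool of day 5 that count of 0 became 2. On the deposited scale 9 of 10 members rose over the whole span from day 5 to day 14, all but Pdlim3, against 13.1% of all genes. The rises were 1.21 ± 0.11 for Myoz2, 1.02 ± 0.23 for Tcap, 0.92 ± 0.15 for Myoz1, 0.86 ± 0.16 for Ldb3, 0.64 ± 0.11 for Actn2, 0.64 ± 0.11 for Myot, 0.52 ± 0.11 for Actn3, 0.36 ± 0.08 for Ttn and 0.27 ± 0.07 for Neb. Pdlim3 stood at 0.14 ± 0.08. Without the right pool of day 5 the count was 5. The comparison of day 14 with day 5 was chosen with the values of these days known. Relative to the fibre markers, 6 members stood lower against day 0 on day 14 than on day 5. Ttn went from 0.53 to 0.178, Neb from 0.667 to 0.226 and Actn2 from 0.655 to 0.589. Actn3 went from 0.14 to -0.051, Myot from 0.155 to 0.08 and Pdlim3 from 1.111 to 0.539. Myoz1, Myoz2, Tcap and Ldb3 stood higher, at -0.047, 0.651, -0.872 and -0.027 after -0.259, 0.151, -1.183 and -0.175.

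Other genes of the sarcomere are described from lists, none of which holds a member. Of 22 other Z-disc genes, 8, 13, 13, 11, 12 and 7 fell on days 1, 3, 5, 7, 10 and 14, and 4, 4, 5, 6, 5 and 7 rose, so that the list went both ways on the deposited scale. All genes did so too, with 22.6% to 36.3% lower and 22.3% to 26.6% higher on the 6 days, and 30.5% and 22.9% on day 14. These shares also stand beside the lists that follow. The median of the other Z-disc genes was -0.05 on day 1, -0.30 on day 5 and -0.12 on day 14, which the shift to the fibre marker scale turns above 0 on each of these days. Myoz3, the third myozenin, fell on all 6 days, by -1.89 ± 0.22 on day 5 and still -1.07 ± 0.22 on day 14. Ky, a Z-disc protein needed for muscle maintenance, fell on all 6 days and went from -3.37 ± 0.13 on day 3 to -1.27 ± 0.13 on day 14. Igfn1, which binds Ky, stood at -0.12 ± 0.19 on day 1 and rose by 1.00 on day 7, 1.14 on day 10 and 1.99 ± 0.19 on day 14 (adjusted p = 3.0e-06). The myozenin genes thus stood at -0.37, 0.32 and -1.07 on day 14 for Myoz1, Myoz2 and Myoz3, of which Myoz1 did not pass (adjusted p = 0.0565), although it did without either pool of day 3 or day 5 and with arrays at equal medians of all genes (adjusted p = 0.0132).

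At the far end of titin, in the M-band and thick filament list, 8, 8, 10, 10, 10 and 8 of 13 measured genes fell on the 6 days, and at most 2 rose on any day. The list median was -1.11 on day 5, close to that of the fibre markers, with which the list shares Myom1, Myom2, Mybpc1 and Mybpc2. Myom1, which encodes myomesin and links titin to myosin there, was also a fibre marker and fell, to -1.71 ± 0.13 on day 5 and -0.79 ± 0.13 on day 14. The list of thin filament genes shares Acta1, Tnnt3, Tnni2, Tnnc2 and Tmod4 with the fibre markers. It had 8, 8, 10, 9, 8 and 4 of 17 lower and 2, 5, 5, 5, 5 and 5 higher. The 2 rises of day 1 were of other genes than those of day 5 named here, and Actc1, the cardiac actin of developing fibres, was lower on day 1, at -0.61 ± 0.09. On day 5 the rises were led by Actc1, at 2.36 ± 0.09, and by the slow troponin genes Tnni1 and Tnnc1, at 2.22 ± 0.20 and 1.73 ± 0.28. Both troponin genes are also in the slow-fibre list used below. Neb, whose protein lies along these filaments, was at -0.37 ± 0.07 on that day, and 0.67 relative to the fibre markers.

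Genes of proteins that bind titin and respond to stretch went both ways. Of 8 measured, 2 fell and 3 rose on day 1, and 4 fell and 2 rose on day 5. Of all genes, 22.6% were lower and 22.3% higher on day 1, and 33.7% and 26.4% on day 5, so that a list with calls in both directions is not particular to these genes. Ankrd1, an ankyrin repeat protein that binds titin in the I-band, rose by 3.40 ± 0.20 on day 1 (adjusted p = 5.4e-08) while Ttn was at -0.23. Trim63, a ubiquitin ligase known as MuRF that binds titin near the M-band, rose by 1.55 ± 0.15 on day 1 and was lower on day 5, at -1.27 ± 0.15. Fhl2, a LIM protein that binds titin, was at -0.01 ± 0.10 on day 1 and rose by 1.53 ± 0.10 on day 5 and 1.63 ± 0.10 on day 10.

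A list of 10 paralogues of the members, drawn up as non-muscle forms, shares 5 genes, Nebl, Palld, Pdlim1, Pdlim5 and Pdlim7, with the list of other Z-disc genes. Of the 10, 5, 5, 6, 6, 6 and 7 rose on the 6 days and 2, 4, 3, 2, 2 and 1 fell, with a median of 0.70 on day 5 against -0.88 for the members. All genes that fell were among the 5 shared ones, whose median was -0.24 on day 5. Of the other 5, Actn1, Actn4, Lasp1, Pdlim2 and Pdlim4, 4 rose on each day, with a median of 1.25 on day 5, and no value was below 0. Lasp1, a small relative of nebulin that binds actin, rose on all 6 days, by 1.10 ± 0.10 on day 1 and 1.73 ± 0.10 on day 5. Pdlim4, a relative of Pdlim3, was at 0.06 ± 0.08 on day 1 and rose by 1.05 ± 0.08 on day 5 and 1.26 ± 0.08 on day 10.

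**Figure D4:**
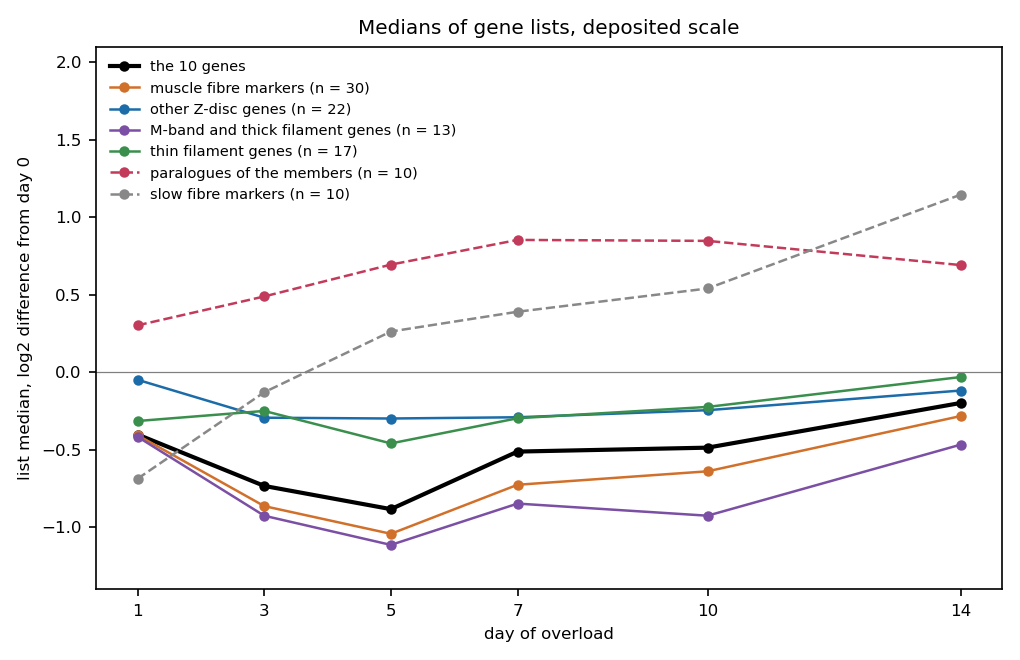
Median log2 difference from day 0 on the deposited scale (vertical axis) against the day of overload, for the 10 genes and 6 gene lists. The median of the 10 genes lies between -0.88 and -0.20 and close to that of the 30 fibre markers (-1.04 to -0.28), whereas relative to those markers Ttn, Neb, Actn2 and Pdlim3 are above 0 on all 6 days; the median of the 10 paralogues lies between 0.30 and 0.85.

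Fast-fibre and slow-fibre markers are set beside the paired genes. Of 12 fast-fibre markers, all of which are also among the 30 fibre markers, 7, 11, 11, 9, 9 and 4 fell on the 6 days. The slow-fibre list had 4, 4, 5, 4, 3 and 2 of 10 lower and, from day 3 on, 3, 5, 5, 5 and 6 higher, with medians of -0.69 on day 1, 0.26 on day 5 and 1.15 on day 14. Its members did not move alike, since Myl3, the slow myosin light chain, was at -2.63 ± 0.24 on day 5, when Tnni1 was at 2.22 ± 0.20. Myoz2, the slow-fibre myozenin, followed -0.94, -0.89 and 0.32 on days 1, 5 and 14. The part of fibre type in the split of the paired genes was not tested.

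Right pools were lower than left pools on days 5 and 7 in all 10 members. The number of members lower in the right pool was 7, 3, 8, 10, 10, 9 and 4 on days 0, 1, 3, 5, 7, 10 and 14, with a median of -0.33 on day 5 and -0.21 on day 7. Of all genes, 50.36%, 47.56%, 44.83%, 48.1%, 47.31%, 48.95% and 54.79% were lower in the right pool on these days. The 30 fibre markers moved like the members, with 29 and 30 of them lower in the right pool on days 5 and 7 and medians of -0.38 and -0.25, while the median of all genes was 0.01 on both days. With the day as a block, 0 members and 0 genes were called between sides with limma (0% of all genes), and at an unadjusted p under 0.05 there were 3 members, all lower on the right, and 2092 genes (10.5%). Tcap was lower in the right pool on 7 of 7 days, by -0.35 ± 0.08 on average (adjusted p = 0.282). The labels name no difference between the sides other than the side itself.

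**Figure D5:**
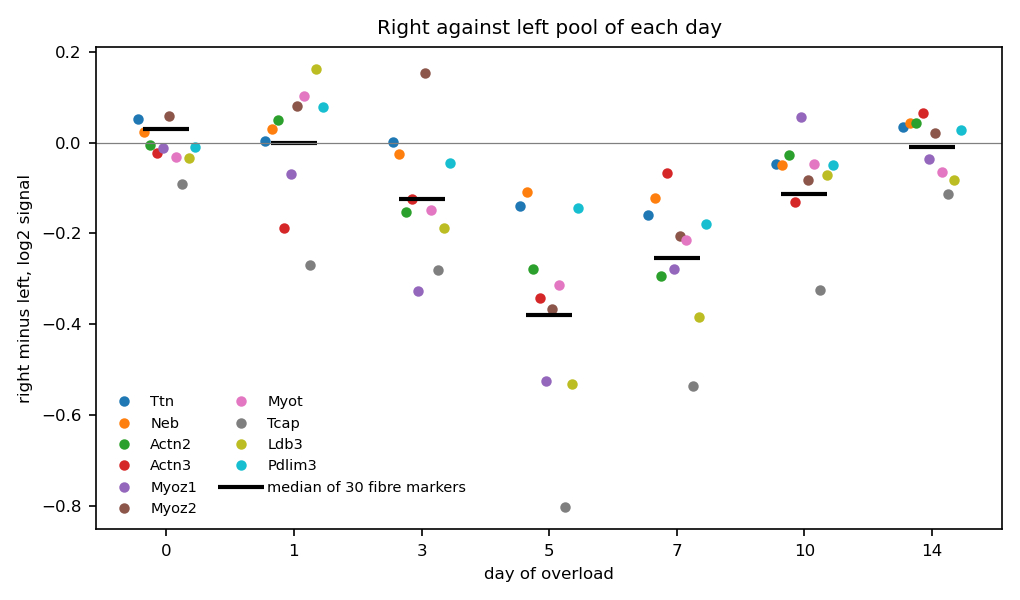
Right minus left log2 signal (vertical axis) of the 10 genes on each day of overload, with a bar at the median of 30 fibre markers. On days 5 and 7 all 10 points lie below 0, as does the fibre marker bar at -0.38 and -0.25, and Tcap on day 5 is lowest at -0.80.

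The genes with the most similar course over the 14 arrays were sought for each member among all genes that are not members, by Pearson correlation and as a description of arrays that share their days. For Ttn they were Dmd, which encodes dystrophin, and Sgcb, which encodes beta-sarcoglycan of the same membrane complex (r = 0.99 and 0.99), and the same genes came first for Neb (r = 0.99 and 0.98). Dmd itself was at -1.20 on day 5, against -0.51 for Ttn. For Actn2 they were Map1lc3a and Mylpf (r = 0.97 and 0.96), and for Actn3 Hhatl and Sh3bgr (r = 0.98 and 0.98). Myoz1 was most like Tmod1, which encodes the cap of the thin filament's pointed end, and Ak1, the adenylate kinase of muscle (r = 0.99 and 0.98). Myoz2 was most like Trib2 and Olfr558 (r = 0.96 and 0.96). For Myot they were Asb12 and Got2 (r = 0.99 and 0.98), for Tcap Herc3 and Eef1a2 (r = 0.99 and 0.99), and for Ldb3 Lsmem1 and Alpk3 (r = 0.99 and 0.99). The closest genes to Pdlim3 were Hspb7, a small heat shock protein of muscle, and Ankrd2, a stretch-responsive relative of Ankrd1 (r = 0.94 and 0.89), at 0.25 and 0.47 on day 5.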

How the data were processed

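Each deposited value is the log2 signal of a probe set, as normalized by the authors with a method that no source used here names; their processing notes list Partek with no version. RNA input is stated as 100 ng in the design text and as 250 ng in the labelling protocol. Values lay between 2.35 and 14.8; without scanner files no detection call stands behind them. Of 35557 probe sets, 21789 carried 1 symbol, 1621 several and 12147 none; the brightest stood for each of 999 genes with more than 1, and low values were kept. Models were fitted to 14 arrays in limma 3.58.1 (R 4.3.3), with day as group, 7 residual degrees of freedom and two-sided p-values adjusted by Benjamini-Hochberg over all 19938 genes. Paired genes were compared by subtracting the reference gene on each array, which puts its noise in every row, so that p-values of these tests can be too small. The procedure was tested on simulated data. The members and lists were chosen with earlier results of these data known, and lists are described by counts and medians. Named genes were all members, Actn1, up to 3 genes of each list with the largest called difference, and the 2 genes most correlated with each member. Alternatives were other scalings, filters, thresholds and fits. Over all genes the sides paired the arrays weakly: for 21 pairs of days, side differences correlated at r from -0.19 to 0.35, with 6 over 0.1. Fibre genes did share a side difference on some days, with 28, 29, 30 and 26 of 30 fibre markers lower in the right pool on days 3, 5, 7 and 10, against 44.83%, 48.1%, 47.31% and 48.95% of all genes.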

Additional observations from a re-analysis of the deposited data

How the results depend on the processing

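Counts of members called against day 0 depended most on scaling. With fibre marker medians equal, 3, 1, 1, 1, 1 and 1 members were lower on days 1, 3, 5, 7, 10 and 14, and 4, 4, 4 and 3 were higher on days 3, 5, 7 and 10. With equal array medians 0 were higher on days 1, 3 and 14 and 7 lower on day 14, and with quantile normalization 1 was higher on each of days 5 and 7. The median of all genes lay between -0.14 and 0.04 as deposited, between -0.29 and 0.01 with equal medians and between 0.22 and 0.91 with equal fibre markers. Array weights gave 5 lower on day 1 and 0 higher on days 1, 3 and 14. With only the 4 arrays compared, 0 were higher on days 1 and 3 and 4 lower on day 14. At an adjusted p under 0.01, 4 were lower on day 1, 1 on day 14 and 0 higher on days 1, 3 and 14; with at least 1.5-fold, 3 were lower on day 1, 5 on day 7, 1 on day 14 and 0 higher on days 1, 3 and 14. The side as a replicate block gave 5 lower on day 14, with calls added for Myoz1, Myot and Ldb3 (adjusted p = 0.0287, 0.0447 and 0.049) and for Actn2 as higher (adjusted p = 0.043), and 2 higher from day 10 to day 14, and an intensity trend with robust estimation also 2; the block moved no other count of members by over 1.5 times. Leaving out 1 array gave 4 to 8 lower and 0 to 1 higher on day 1, 0 to 1 higher on day 3, 1 to 5 lower and 0 to 3 higher on day 14, 2 to 5 lower from day 1 to 3, 0 to 1 higher from day 5 to 7, 0 to 2 from day 10 to 14, 5 to 9 from day 5 to 14, and 0 to 6 days for Myoz2 relative to Myoz1. Counts lower on days 3, 5, 7 and 10 stayed within 8 to 9, 8 to 9, 7 to 8 and 7 to 7.

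Signs turned with equal fibre marker medians for Ttn (0.20, 0.38, 0.53, 0.35, 0.27 and 0.18 on days 1 to 14), Neb (0.28, 0.51, 0.67, 0.45, 0.34 and 0.23), Actn2 (0.14, 0.49, 0.66 and 0.69 on days 1 to 7), Actn3 (0.069, 0, 0.14, 0.051 and 0.007 on days 1 to 10), Myoz1 (0.008 on day 10), Myoz2 (0.12, 0.15, 0.45 and 0.58 on days 3 to 10) and Myot (0.20, 0.16, 0.19, 0.019 and 0.08 on days 3 to 14). With equal array medians they turned for Pdlim3 on days 5, 7 and 10 (-0.055, -0.005 and -0.072) and Actn2 on day 10 (-0.11), and with quantile normalization for Myoz2 on day 10 (0.001). Leaving out 1 pool of day 7, Actn2 was at -0.238 to 0.056 on that day, and relative to Actn3 it was at -0.044 on day 1 without the right pool of that day. The cause of these shifts was not tested beyond the construction of each scale. The 60 differences of members from day 0 kept direction and side of the threshold in 60 cases when probe sets were averaged or all tested, in 58 with the 25% lowest genes left out or with the intensity trend, and in 56 with the block. None of these settings could change a difference itself, since each member had 1 probe set and each day had both sides. Only the adjusted p could move. Signal over background is unknown, which limits small differences.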
